A study of Mus musculus with 7 samples.

Results

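Tubulins are the building blocks of microtubules, the stiff filaments along which cells move cargo and from which the mitotic spindle is built. An alpha and a beta chain join into a dimer, the dimers stack end to end, and each chain exists as several isotypes made from separate genes. Tuba1a, Tuba1b, Tuba1c, Tuba4a and Tuba8 encode alpha chains, and Tubb2a, Tubb2b, Tubb3, Tubb5 and Tubb6 encode beta chains. When myoblasts fuse into myotubes the microtubules are rearranged into arrays along the length of the cell, and cells also read their own level of free tubulin dimer and adjust tubulin mRNA to it.

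These 10 genes, out of 31829 gene names on the array, were taken as every non-control probe that carries one of their names. They have 14 probes among 39429. The study asked whether exosomes, small vesicles that cells release, carry the effect of palmitate from one muscle cell to another. Recipient cells of the C2C12 line, a mouse muscle precursor line, received exosomes for 24 h, and their RNA was measured on 1-colour Agilent arrays. In EXO-Post BSA (4 arrays) the exosomes came from C2C12 cells given albumin alone. In EXO-Post Palm (3 arrays) they came from cells given 0.5 mmol/l palmitate bound to albumin. Exosomes of both groups were collected 9 h after the treatment was taken away. The labels name the arrays of each group as biological replicates. The labels call the recipient cells myoblasts, while the methods describe differentiated myotubes. All 15 myotube markers looked for, among them Myog, Myh3 and Acta1, were well above background on all 7 arrays, and of 7 markers of undifferentiated myoblasts 6 were as well and Myf5 was on none. All values come from whole wells, so a change in the number of cells of a type and a change in RNA per cell cannot be told apart.

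Values are on a log2 scale: the scanner's processed signal of a probe over the 75th percentile of that array, called the normalised signal here. This signal depends on the probe, so a value is compared with the same probe in other arrays and not with other probes. Only probes that the scanner software marked as well above background in 75% or more of either group's arrays were tested. That left 21589 probes and, of the tubulins, 13 probes of 9 genes. The arrays lay on 4 slides. EXO-Post BSA replicates 1 and 2 and EXO-Post Palm replicate 1 were on slide 1, EXO-Post BSA replicate 3 was alone on slide 2, EXO-Post BSA replicate 4 and EXO-Post Palm replicate 3 shared slide 3, and EXO-Post Palm replicate 2 was alone on slide 4. The 75th percentile was between 549 and 1621 intensity units. Correlations between arrays were 0.948 to 0.984 within groups and 0.947 to 0.984 between groups.

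Some probes read the same or nearly the same stretch of a transcript, so their sequences are shown before their values. Tuba1a, Tuba1b and Tuba1c lie on chromosome 15. On the mm9 build the array annotation places the Tuba1c probes at chr15:98868488-98868547 (A_55_P2064547) and chr15:98868477-98868536 (A_55_P2108837), on the plus strand. Both overlap in 49 bases, and in that overlap 1 base differs, written A43G with A_55_P2064547 first and positions counted from its 5′ end. The last 30 bases of the overlap are shown with the differing base in capitals.
A_55_P2064547: aaactgtcaataaaggtgtttccAttgtaa
A_55_P2108837: aaactgtcaataaaggtgtttccGttgtaa

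The Tuba1a probes are at chr15:98780278-98780293 (A_51_P169745, of which the annotation places only 16 of 60 bases) and chr15:98780266-98780325 (A_55_P2115057), on the minus strand. Their longest shared run, in capitals below, is 13 bases, and it lies near the 3′ end of the former and near the 5′ end of the latter.
A_51_P169745: attttgacagagacCCCAAGCTGCCCAttt
A_55_P2115057: agaCCCAAGCTGCCCActtcactgatgggt

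Tuba4a was read by a probe in the coding sequence, the part of the message that isotypes share most, and it is shown whole. It is at chr1:75212307-75212366, on the minus strand.
A_52_P676271 (Tuba4a): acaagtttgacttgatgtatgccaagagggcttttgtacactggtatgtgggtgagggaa

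Of the other probes, Tuba1b probe A_55_P2154132 is at chr15:98761923-98761982, and the Tuba8 probe at chr6:121176046-121176105. The Tubb2a probe, of which 30 bases are placed, is at chr13:34166116-34166145, and the Tubb2b probes at chr13:34219061-34219120 (A_51_P514256) and chr13:34219092-34219151 (A_55_P2034864) share a run of 29 bases. The Tubb3 probe is at chr8:125945850-125945909, the Tubb5 probe at chr17:35971872-35971931, and the Tubb6 probe lies on chromosome 18.

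No tubulin probe differed between EXO-Post Palm and EXO-Post BSA after adjustment. By limma with Benjamini-Hochberg adjustment over all tested probes, 0 of the 13 tubulin probes had an adjusted p under 0.05, against 115 of 21589 probes (0.533%) over the array, and the adjusted p of the tubulins ran from 0.306 to 0.983. Before adjustment 1 of 13 was higher in EXO-Post Palm with a p under 0.05, against 4.85% of all tested probes, and 1 of 13 was lower, against 5.19%. The groups did not overlap for 3 of 13, against 11.0% of all tested probes. The log2 fold change was above 0 for 7 probes and below 0 for 6, with a median of 0.02 against -0.02 over all tested probes, and the sign held under all alternatives run for 4 of the 13. The alpha chains had a median of 0.02 over 7 probes and the beta chains -0.01 over 6.

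**Figure D1:**
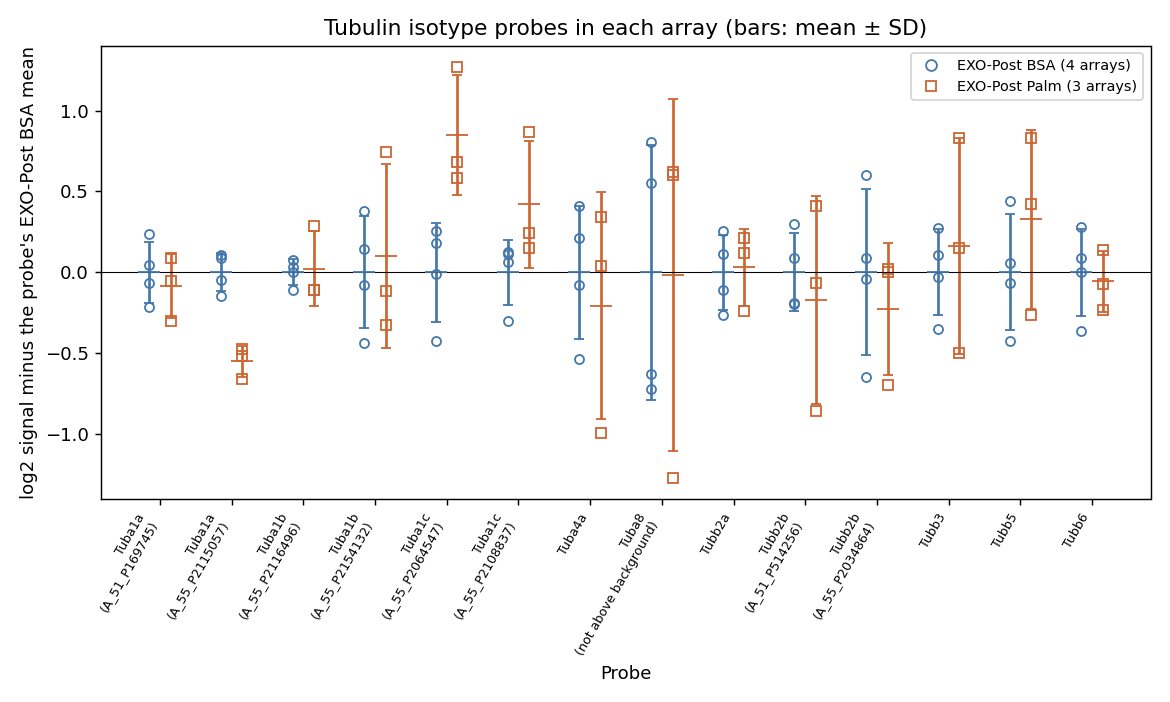
Normalised log2 signal of the 14 tubulin probes in each array, as the difference from the probe's mean in EXO-Post BSA. Each circle is 1 of 4 EXO-Post BSA arrays, each square 1 of 3 EXO-Post Palm arrays, and bars are mean ± SD. The squares lie above all circles for both Tuba1c probes and below all circles for Tuba1a probe A_55_P2115057, and they overlap the circles in every other probe.

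Tuba1c, an alpha chain of many tissues, gave the highest fold changes of the tubulin probes. Probe A_55_P2064547 had normalised signals of 5.14, 4.46, 5.06 and 4.87 in EXO-Post BSA replicates 1 to 4 and of 5.47, 5.57 and 6.16 in EXO-Post Palm replicates 1 to 3. All EXO-Post Palm arrays were above all EXO-Post BSA arrays. The means were 4.88 ± 0.31 (SD, n = 4) and 5.73 ± 0.37 (SD, n = 3), a log2 difference of 0.85 (1.80-fold, 95% interval 0.25 to 1.44), with an adjusted p of 0.306 by limma and an unadjusted p of 0.0106. An exact permutation test of the array labels (35 arrangements, 2-sided) gave p = 0.0286, the smallest it can give. This probe stood 750th by p among the 21589 tested.

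The second Tuba1c probe, A_55_P2108837, gave a smaller difference of the same sign. Its normalised signals were 5.63, 5.22, 5.58 and 5.64 in EXO-Post BSA and 5.67, 5.76 and 6.39 in EXO-Post Palm. The groups did not overlap, but EXO-Post Palm replicate 1 was only just above the highest EXO-Post BSA array. The log2 difference was 0.42 (95% interval -0.14 to 0.98), with an adjusted p of 0.613 by limma and an exact permutation p of 0.0286. It was 0.20 with EXO-Post Palm replicate 3 left out, 0.75 with normexp and 0.72 in the authors' processed values. Within slide 1 the EXO-Post Palm array exceeded the mean of its EXO-Post BSA neighbours by 0.67 and 0.24 for the probes in the order given, and within slide 3 by 1.28 and 0.75.

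Tuba1a, the alpha chain best known from the developing nervous system, gave unlike values with its probes. Probe A_55_P2115057 had normalised signals of 6.68, 6.70, 6.55 and 6.45 in EXO-Post BSA and of 5.93, 6.08 and 6.12 in EXO-Post Palm. All 3 EXO-Post Palm arrays were below all 4 EXO-Post BSA arrays, and the spread within each group was small (SD 0.12 and 0.10). The log2 difference was -0.55 (0.682-fold, 95% interval -0.98 to -0.13), with an adjusted p of 0.367 by limma, an unadjusted p of 0.0168 and an exact permutation p of 0.0286. Within slides 1 and 3 the difference was -0.76 and -0.33.

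Probe A_51_P169745 of Tuba1a had normalised signals of 6.29, 6.41, 6.59 and 6.15 in EXO-Post BSA and of 6.06, 6.45 and 6.31 in EXO-Post Palm. The groups overlapped. The log2 difference was -0.09 (95% interval -0.56 to 0.39), with an adjusted p of 0.919 by limma, and it was -0.29 within slide 1 and 0.16 within slide 3.

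**Figure D2:**
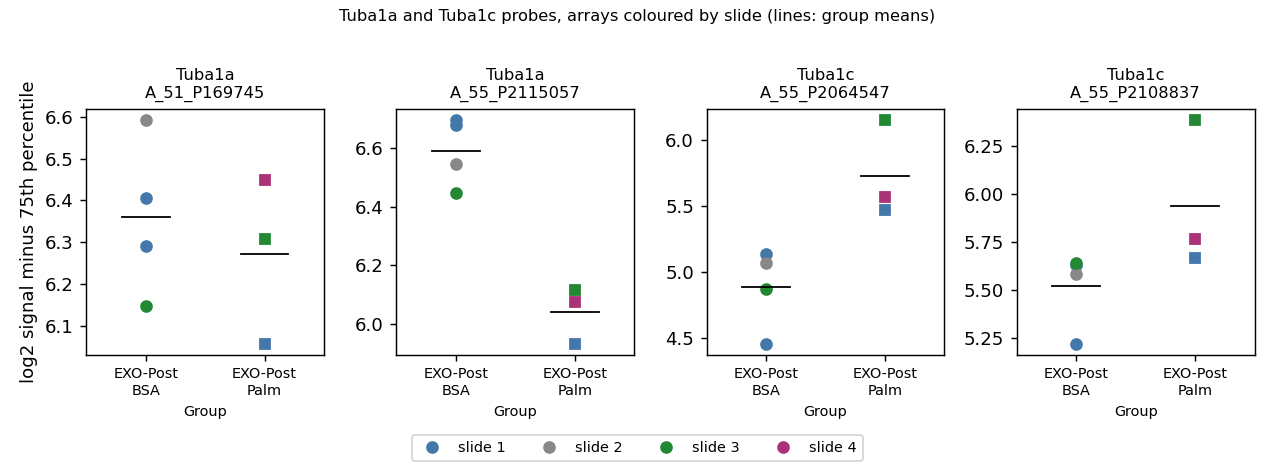
Normalised log2 signal of both probes of Tuba1a and of Tuba1c in EXO-Post BSA (circles) and EXO-Post Palm (squares), 1 point an array, coloured by slide, with lines at the group means. Each panel has its own scale. The Tuba1c squares lie above the circles in both panels, while for Tuba1a only A_55_P2115057 has all squares below the circles.

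Probes of the same gene were then set against each other array by array in the 4 genes that have a tested pair. For Tuba1c the signal of A_55_P2108837 minus that of A_55_P2064547 was 0.64 ± 0.15 in EXO-Post BSA (SD, n = 4) and 0.21 ± 0.02 in EXO-Post Palm (SD, n = 3). That shift of -0.43 had an exact permutation p of 0.0286, or 0.114 after Benjamini-Hochberg adjustment over the 4 pairs. It was 0.04 with normexp background correction followed by quantile normalisation, and 0.05 in the authors' processed values. For Tuba1a the signal of A_55_P2115057 minus that of A_51_P169745 went from 0.24 to -0.23, a shift of -0.46 (exact permutation p = 0.0571, adjusted 0.114), and the groups did not overlap. For Tuba1b the shift was 0.08 and for Tubb2b it was -0.05 (adjusted exact permutation p = 0.914 for both). No pair passed the threshold after adjustment.

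Tuba1b, a ubiquitous alpha chain, had the smallest fold change of the tested tubulin probes. Its probe in the coding sequence (A_55_P2116496) had normalised signals of 5.78, 5.82, 5.67 and 5.86 in EXO-Post BSA and of 5.67, 6.07 and 5.67 in EXO-Post Palm, so that the groups overlapped. The log2 difference was 0.02 (95% interval -0.43 to 0.47), with an adjusted p of 0.983 by limma. The other probe read 7.82, 7.59, 8.05 and 7.24 against 7.35, 7.56 and 8.42, with a log2 difference of 0.10 (95% interval -0.61 to 0.82).

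Tuba4a, an alpha chain of muscle and nerve, had the widest spread within groups of the tested alpha chain probes (SD 0.41 and 0.70). Its signals were 4.86, 5.35, 4.41 and 5.16 in EXO-Post BSA and 4.98, 3.95 and 5.28 in EXO-Post Palm, where replicate 2 lay below every other array. The log2 difference was -0.21 (95% interval -1.03 to 0.62), with an adjusted p of 0.884 by limma. Leaving out that array turned the difference to 0.19. Tuba8, an alpha chain of muscle and testis, was not well above background on any of the 7 arrays, with intensities of 5.2 to 11.3 in EXO-Post BSA and 6.0 to 8.8 in EXO-Post Palm, and it was not tested.

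Among the beta chains none had groups that did not overlap. Tubb5, which is expressed in most cells, had the highest fold change. Its signals were 4.84, 5.35, 4.48 and 4.96 in EXO-Post BSA and 5.33, 4.64 and 5.73 in EXO-Post Palm, a log2 difference of 0.33 (95% interval -0.38 to 1.04), with an adjusted p of 0.766 by limma. EXO-Post Palm replicate 3 was above all 4 EXO-Post BSA arrays and replicate 2 lay within their range. The difference was 0.08 with EXO-Post Palm replicate 3 left out and 0.63 with replicate 2 left out.

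Tubb3, the isotype used as a marker of neurons, read 0.96, 1.12, 0.50 and 0.82 in EXO-Post BSA and 1.00, 0.35 and 1.68 in EXO-Post Palm. The EXO-Post Palm arrays held both the highest and the lowest value. The log2 difference was 0.16 (95% interval -0.58 to 0.90), and it was -0.17 once EXO-Post Palm replicate 3 was left out. Of 6 neuron markers on the array, Syt1 was well above background on none and 5 on all 7 arrays, and of the 5 tested none passed the threshold. Before adjustment 3 of these 5 had a p under 0.05 by limma, against 2169 of 21589 tested probes. Their log2 differences were -1.61 in Snap25 (adjusted p = 0.0802 by limma), 0.93 in Nefm and 0.72 in Nefl. The other tested neuron markers, Mtap2 and Elavl4, had log2 differences of -0.59 and 0.02.

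Tubb2a and Tubb2b are close relatives that lie on chromosome 13. Tubb2a read 5.99, 5.61, 6.13 and 5.76 against 5.64, 5.99 and 6.09 (log2 difference 0.03, 95% interval -0.47 to 0.54). Tubb2b gave log2 differences of -0.17 (probe A_51_P514256) and -0.23 (probe A_55_P2034864), with intervals of -0.89 to 0.54 and -0.97 to 0.52. In both Tubb2b probes the EXO-Post Palm arrays overlapped the EXO-Post BSA arrays.

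Tubb6, a beta chain linked to microtubule order in regenerating muscle, read 6.80, 6.52, 6.15 and 6.60 in EXO-Post BSA and 6.28, 6.65 and 6.45 in EXO-Post Palm. The groups overlapped, and the log2 difference was -0.06 (95% interval -0.57 to 0.45), with an adjusted p of 0.951 by limma.

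**Figure D3:**
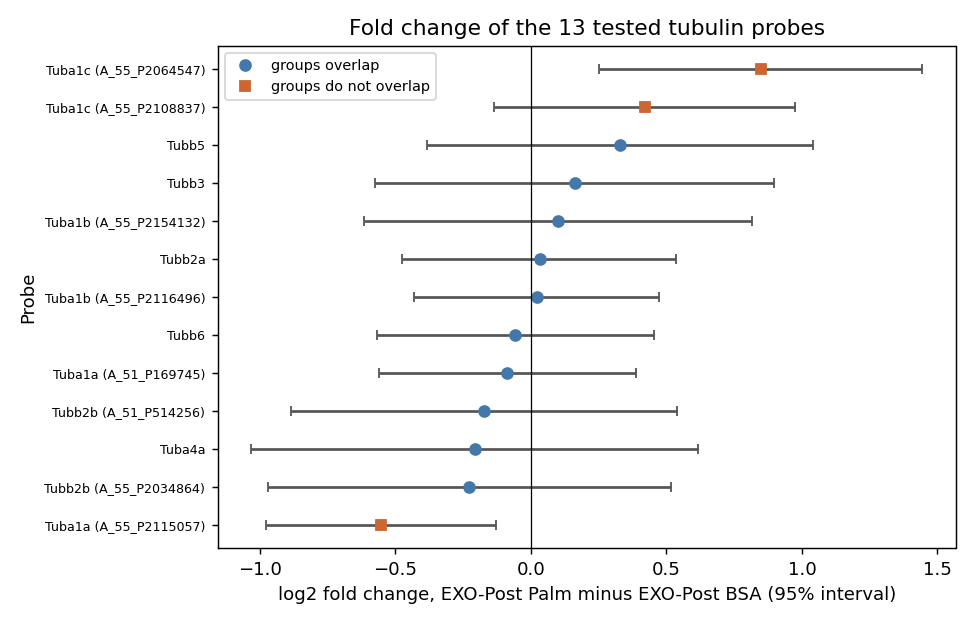
Log2 fold change of the 13 tested tubulin probes, EXO-Post Palm minus EXO-Post BSA, with 95% intervals from limma. Squares mark probes whose groups did not overlap. The intervals of Tuba1c probe A_55_P2064547 and of Tuba1a probe A_55_P2115057 do not include 0, and the other 11 do.

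The intervals bound what these arrays could show. For 10 of the 13 tubulin probes the 95% interval lay wholly between -1 and 1 on the log2 scale, as it did for 59.6% of all tested probes. EXO-Post Palm replicate 3 was the highest of the 3 EXO-Post Palm arrays for 10 of the 13 tubulin probes, against 31.0% of all tested probes, and it had the lowest 75th percentile of the 7 arrays.

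The genes that act on tubulin were described beside the isotypes, with 1 probe a gene. Of 7 other tubulins tested, 0 passed, 6 had a log2 fold change above 0, and the median was 0.12, which became 0.37 with slide as a block and 0.35 when EXO-Post BSA replicate 3 was left out. They ran from -0.16 in Tubd1 (delta-tubulin) to 0.58 in Tube1 (epsilon-tubulin). Of 20 genes of tubulin folding and of the sensing of free dimer, which include the chaperonin that folds both chains, 0 passed and the median was 0.02, from -0.50 in Cct2 to 0.60 in Pfdn5. In EXO-Post BSA, Cct2 had a value on replicates 1 and 4 only, since its spots on the other arrays were flagged. Of 18 enzymes that modify tubulin after it is made, 0 passed and the median was -0.04, from -1.26 in Agbl3 to 0.90 in Ttll6. Agbl3 was well above background on 3 of 4 EXO-Post BSA arrays and on 1 of 3 EXO-Post Palm arrays, so the size of its difference rests in part on signals at background. Ttll6 was well above background on 3 of 4 EXO-Post BSA arrays and on all EXO-Post Palm arrays, and its groups overlapped. Of 9 genes of microtubule nucleation 0 passed and the median was 0.25, from -0.35 in Tubgcp3 to 0.76 in Tubgcp6.

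Among 20 proteins that bind microtubules 2 passed the threshold, both higher in EXO-Post Palm, against 0.533% of all tested probes. In this list 7 genes had a log2 fold change above 0 and 13 below. The median was -0.12, and it turned to 0.02 with normexp and in the authors' processed values. Prc1, which bundles the central spindle, rose by 1.84 on the log2 scale (adjusted p = 0.0436 by limma). Tpx2, a spindle assembly factor, rose by 1.85 (adjusted p = 0.0427 by limma), and the lowest of the list was Mtap2 at -0.59. Among 10 destabilisers and severing enzymes 1 passed the threshold, higher in EXO-Post Palm, while 5 had a log2 fold change above 0 and 5 below. Stmn1, which binds tubulin dimers and promotes depolymerisation, read 1.40, 1.58, 1.52 and 1.27 in EXO-Post BSA and 3.11, 3.03 and 3.86 in EXO-Post Palm. Its groups were far apart, with a log2 difference of 1.89 (adjusted p = 0.0193 by limma). The list ran from Stmn2 at -0.84 to Kif18a at 2.42 (adjusted p = 0.219 by limma), and Kif18a was well above background on all 3 EXO-Post Palm arrays but on 2 of 4 EXO-Post BSA arrays, so the size of its difference rests in part on signals at background. The list's median was -0.05 and had no stable sign, being 0.06 with EXO-Post Palm replicate 2 left out and 0.02 with replicate 3 left out.

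These calls depended on the arrays and the model used. Stmn1 kept an adjusted p under 0.05 in 12 of 19 alternatives, Tpx2 in 10 and Prc1 in 9, and in all 19 each was above 0. Dropping replicate 1 or 3 of EXO-Post Palm, or replicate 1 of EXO-Post BSA, left all of them above the threshold, with adjusted p by limma from 0.0502 for Stmn1 to 0.127 for Tpx2, and dropping any other EXO-Post BSA array did so for Tpx2 and Prc1. With slide as a block the log2 differences of Stmn1 and Prc1 were 2.04 and 2.01 (adjusted p by limma 0.0540 and 0.0545), while Tpx2 kept its call. Such a fit draws on slides 1 and 3 only, as EXO-Post BSA replicate 3 and EXO-Post Palm replicate 2 were alone on theirs. Tpx2 and Prc1 also belong to the G2/M list, genes of mitosis. All 23 tested genes of that list had a log2 fold change above 0, with a median of 2.19, and 17 passed the threshold. Kif23, which is among the 17, was well above background on 2 of 4 EXO-Post BSA arrays and on all 3 EXO-Post Palm arrays. It was therefore tested only through the group where it is higher, and the size of its difference rests in part on signals at background. Without EXO-Post Palm replicate 1 or without replicate 3, 1 call was left. Relative to the EXO-Post BSA mean, the median of the G2/M genes was 2.21, 1.65 and 2.84 in EXO-Post Palm replicates 1 to 3, and Tuba1c probe A_55_P2064547 was at 0.59, 0.69 and 1.27 in the same arrays. The summed signal of the 15 myotube markers, relative to the 75th percentile, was 1090 to 1346 in EXO-Post BSA and 896.5 to 1012 in EXO-Post Palm, so it was lower in all 3 EXO-Post Palm arrays. The brightest probes weigh most in this sum, so it is not an even reading of the 15 markers. For 1 marker there was no value in EXO-Post BSA replicate 4. Of these markers 13 had a log2 fold change below 0 and 2 above, with a median of -0.22, and 0 passed the threshold. The part of the G2/M genes and of the myotube markers in the Tuba1c values was not tested.

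**Figure D4:**
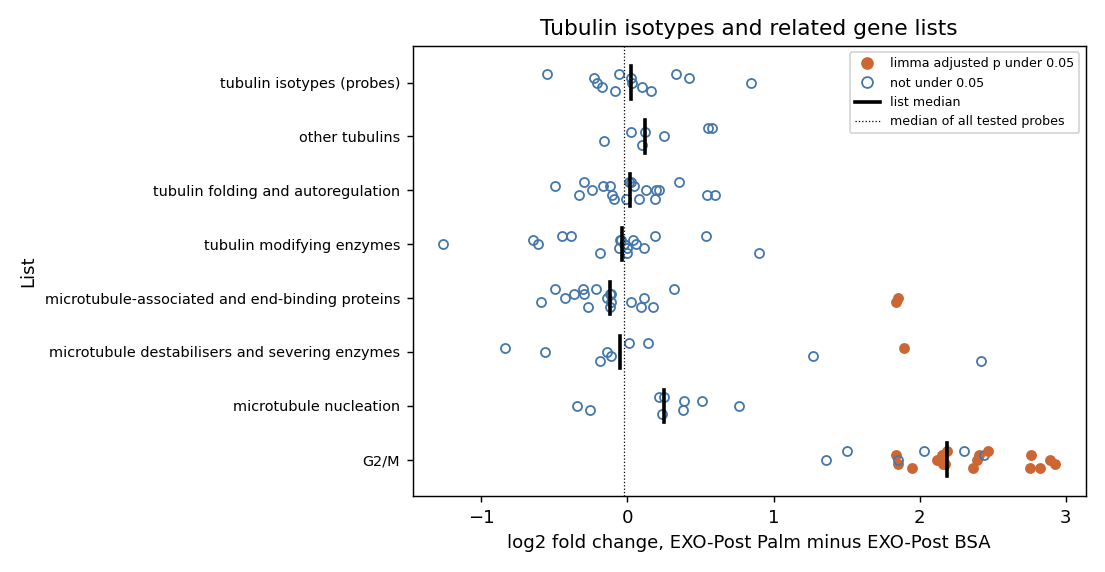
Log2 fold change, EXO-Post Palm minus EXO-Post BSA, of the 13 tubulin probes and of the genes of 7 related lists, with filled points for an adjusted p under 0.05 by limma, bars at list medians and a dotted line at the median of all tested probes. Filled points lie only in the 2 lists of microtubule binding and destabilising proteins and in G2/M.

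The 5 genes whose tested probes were most like Tuba1c probe A_55_P2064547 over the 7 arrays were Rasa3 (Pearson r 0.993), LOC100046852 (0.987), Atp9a (0.978), Trim59 (0.977) and Kpna2 (0.976). These were picked as the highest of all tested probes over 7 arrays that share slides, so they are a description of the arrays only.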

How the data were processed

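RNA of 7 cultures was labelled with Cy3 and hybridised to Agilent mouse arrays. For each array the authors deposited scanner output, in which the processed signal is a background-subtracted intensity. They also deposited a table of their own processed log2 values, equal in distribution between arrays. Per the file headers the software was version 10.7.3.1, and 11.5.1.1 for EXO-Post BSA replicate 3, while the submitters' processing notes name Agilent Feature Extraction 9.1. The methods name limma and Agi4x44PreProcess.

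The processed signal was put on the log2 scale and scaled to the 75th percentile of 43020 non-control spots. Flagged spots were left out, and no spot was saturated. Probes of a gene were not averaged, and for related lists the brightest probe was used. The comparison used limma 3.58.1 (R 4.3.3) on condition alone, with Benjamini-Hochberg adjustment over all tested probes and a threshold of 0.05, 2-sided. The fit was tested on simulated data of 21137 probes for this comparison: it called 5 of 100 probes given a log2 change of 1, and 66 of 100 given a change of 2. The number of arrays limits the precision. The alternative called normexp used median spot signals, since 1 array lacks the mean, and its values were then quantile normalised. Alternatives covered scaling, background, filters, slides, replicate numbers, variance models and single arrays. Those for pairs of probes, Stmn1, Tpx2, Prc1 and G2/M calls were chosen after seeing the data. The isotypes and lists were chosen with earlier results of these data known. Genes named are all isotypes and, of each list, those past the threshold and those with the highest and lowest fold change. G2/M genes and cell type markers are given mainly as counts. Single values are given for the tested neuron markers, and some other markers and Kif23 are named for their detection. The sequence of 1 Tuba1b probe is not reported here.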

Additional observations from a re-analysis of the deposited data

Results flagged for a closer look

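For Tuba1c probe A_55_P2108837, EXO-Post BSA replicate 2 was at 5.22 while the other 3 arrays of its group were between 5.58 and 5.64, so that its gap was 0.864 of the group's range. It was the 1 such case among 13 tubulin probes, and chance alone gives about 1 in 20.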

How the results depend on the processing

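No tubulin probe passed the threshold in any of the 19 alternatives that adjusted p. By the methods' t-test 2 of 13 had an unadjusted p under 0.05, against 2107 of 21589 tested probes. Of 247 recomputed fold changes of tubulin probes, 212 kept their sign and 35 did not. Tuba1a probe A_55_P2115057 (-0.61 to -0.45), both Tuba1c probes (0.64 to 0.98 and 0.20 to 0.75) and Tubb5 (0.08 to 0.63) kept theirs in all 19. The sign changed for Tuba1a probe A_51_P169745 with quantile normalisation (0.01), normexp (0.22) and the authors' processed values (0.21), for the Tuba1b coding probe with the array median (-0.04), slide as a block (-0.15), slide as a random block (-0.01) and array weights (-0.03), and for the other Tuba1b probe with normexp (-0.11), the authors' values (-0.10) and the replicate block (-0.04). It changed for Tubb2a with the array median (-0.03), normexp and the authors' values (-0.07 in both) and the replicate block (-0.01), for Tubb2b probe A_51_P514256 with normexp (0.05), the authors' values (0.06) and slide as a block (0.19), for Tubb2b probe A_55_P2034864 with normexp and the authors' values (0.07 in both), and for Tubb6 with quantile normalisation (0.03). The shift between the probes of Tuba1b became -0.36 with normexp, -0.35 in the authors' values and -0.09 with the replicate block, that of Tuba1c 0.04 and 0.05 with the first pair of these, and that of Tubb2b 0.02 in both. The cause was not tested.

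Leaving out single arrays, the fold change ran from -0.18 to 0.02 for Tuba1a probe A_51_P169745, from -0.11 to 0.09 and from -0.22 to 0.32 for the Tuba1b coding and other probe, from -0.48 to 0.19 for Tuba4a and from -0.06 to 0.17 for Tubb2a. It ran from -0.46 to 0.17 and from -0.44 to 0.01 for Tubb2b probes A_51_P514256 and A_55_P2034864, from -0.17 to 0.49 for Tubb3 and from -0.18 to 0.03 for Tubb6. It ran from 0.20 to 0.56 for Tuba1c probe A_55_P2108837 and from 0.08 to 0.63 for Tubb5, lowest without EXO-Post Palm replicate 3 in both. The shift between probes ran from -0.31 to 0.32 for Tuba1b and from -0.51 to 0.24 for Tubb2b.

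Over the whole array 115 probes were called, 181 with slide as a random block, 173 with trended and robust variance, and 0 without a probe filter, with the replicate block and by the methods' t-test after adjustment (2107 before it). Leaving out an array gave 4 to 228, with 4 without EXO-Post Palm replicate 3, 7 without replicate 1 and 61 to 69 without an EXO-Post BSA array. The 17 G2/M calls became 0 without a probe filter, with the replicate block and by the methods' t-test after adjustment, and 1 to 20 with an array left out (1 without EXO-Post Palm replicate 1 or 3). The 3 settings with no calls tested unlike numbers of probes. At an unadjusted p under 0.05 there were 1900 of 39429 probes without a probe filter. There were 1933 of 21589 with the replicate block and 2107 of 21589 by the methods' t-test. With the replicate block the adjusted p of Stmn1, Tpx2 and Prc1 by limma was 0.149, 0.175 and 0.177, at log2 differences of 1.83, 1.85 and 1.84. Over 18 alternatives each, list medians ran from 0.06 to 0.37 for other tubulins, -0.06 to 0.11 for folding, -0.11 to 0.03 for modifying enzymes, -0.18 to 0.02 for binding proteins, -0.11 to 0.08 for destabilisers, 0.19 to 0.38 for nucleation and 1.89 to 2.50 for G2/M. Deviations of same-numbered arrays correlated at 0.122, -0.150 and -0.148 for replicates 1 to 3. Both arrays of replicate 1 also lay on slide 1, and the groups are small. Whether replicate numbers pair the samples cannot be told from these values. In the paired fit, with the replicate block, 0 tubulin probes were called, as without it.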
